A study of Mus musculus with 27 samples.

Results

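The comparison described here set the 3 arrays taken 18 h after a forskolin pulse against the 3 arrays taken at 12 h, which are 6 of the 27 arrays of a circadian time course of NIH/3T3 cells, an established line of mouse embryonic fibroblasts. The arrays were chosen by their labelled time and paired by experiment number, 1 to 3. All 27 samples had the same described history. The records of the 12 h arrays of experiments 1 and 3 are numbered apart from the rest of the series. Whether those arrays were also run apart was not known here, and in those experiments such a difference could not be told from time. Serum was lowered in steps before the experiment, the cultures were given 15 µM forskolin, which activates adenylyl cyclase, for 2 h in medium without serum, and they were rinsed and kept without serum until harvest. Each sample came from its own flask, the labels call the experiments biological replicates, and the protocol states that the pulse was meant to align both the cell cycle and the circadian oscillation between cultures. No culture without the pulse and none with serum was analysed here, so the hours without serum, the hours since the pulse and the hours in the flask cannot be told apart.

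Before a cell divides, it makes the transcripts for mitosis late in the cycle, in G2. These encode cyclin B and its kinase CDK1, the kinases and motors that build the spindle, and CDC20. CDC20 activates the ubiquitin ligase APC/C, which ends mitosis by destroying cyclin B and securin. Many of these genes carry a CHR element (the cell cycle genes homology region) together with CCAAT boxes in the promoter, through which the DREAM complex represses them in resting cells and the MuvB complex with B-MYB and FOXM1 activates them in dividing cells. Fibroblasts that lose serum are known to leave the cycle in G1 and come to rest.

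The values are log2 intensities after quantile normalization, and changes are 18 h minus 12 h, given ± SE from a limma fit of all 27 arrays with the experiment as a block. A gene was called when its p, adjusted over 7453 probe sets with the Benjamini-Hochberg method, was below 0.05. Each time has n = 3 arrays, and each gene is given by its brightest probe set. The 6 arrays had median intensities of 168 to 194 and actin 3′ to 5′ ratios, a measure of RNA integrity, of 1.15 to 1.61. The 18 h array of experiment 1 had the lowest mean correlation of the 6 with the other arrays of its time, 0.926 in a range of 0.926 to 0.950, and results are also given without it. Weights that count noisier arrays less ranked the arrays otherwise. That array had 0.948, the 18 h array of experiment 2 had 0.674, and the 12 h array of experiment 1 had 0.575, the lowest of all 27. No fit left out that 12 h array alone. As the samples are bulk RNA, fewer dividing cells and less RNA in each dividing cell cannot be told apart. The cells carried the marks of their label: 15 of 16 fibroblast markers were above the intensity filter, among them Col1a1, Col1a2 and Dcn at mean levels of 14.50, 14.52 and 14.46, with changes of 0.04, -0.06 and -0.03. That filter left out the lowest 40% of probe sets, and 25 of 74 listed markers of 6 other cell types passed it too. Passing it does not by itself show identity.

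Few genes passed the test, and the falls were mostly in mitotic genes. Of 5643 genes, 8 fell, which is 0.142%, and 3 rose, which is 0.0532%. The genes that fell were Kif20a, Cdc20, Cks2, Cdca8 and Pttg1, which act in mitosis, and Mmp9, Fgfr2 and Pfkm, which do not belong to that machinery. Those that rose were Asb6, Cry1 and Sh3gl1. All 11 moved the same way in 3 of 3 experiments. A second Plk1 probe set brought the calls to 12 of 7453 probe sets (0.161%) and is described with that gene. These calls needed the experiment block, the intensity filter, the intensity trend in the variance and all 27 arrays: limma called 0 of the 12 probe sets without the block (adjusted p from 0.369 to 1.0), 0 of them without the 18 h array of experiment 1 (0.0713 to 0.252), and 0 when any 1 experiment was left out. With no filter it called 0 of them too (0.0572 to 0.0844), as it did without the trend (0.0686 to 0.0898). The sign of all 12 held in each of those fits.

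Kif20a, on chromosome 18, encodes a kinesin of the central spindle that is needed for cytokinesis. Its level at 12 h was 8.41, 9.58 and 9.10 in experiments 1, 2 and 3, and at 18 h it was 5.06, 7.25 and 5.02. The groups did not overlap, and the change was -3.25 ± 0.54, or 9.53-fold higher at 12 h, with a limma adjusted p of 0.0281. The mean of a probe set had to reach 6.77 to be tested. For Kif20a 2 of the 3 arrays at 18 h lay below that level, so the size of this change is uncertain. The Kif20a mean was also below that level at 18 h and at each later time. Its higher levels before 18 h thus brought it into the test. A dimmer Kif20a probe set, itself below the filter, gave -2.18.

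Cdc20, on chromosome 4, encodes the activator of the APC/C in mid mitosis. It read 9.67, 11.54 and 10.82 at 12 h and 8.30, 10.20 and 8.38 at 18 h. The arrays of the 2 times overlapped, because the level of experiment 2 at 18 h was above that of experiment 1 at 12 h, but the experiments changed by -1.37, -1.34 and -2.44. The change was -1.72 ± 0.32, or 3.29-fold, with a limma adjusted p of 0.0361.

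Cks2, on chromosome 13, encodes a small subunit of the cyclin-dependent kinases. Its 3 arrays at 12 h (8.80, 9.54 and 9.09) were all above its 3 arrays at 18 h (7.74, 8.44 and 7.22), a change of -1.34 ± 0.25 with a limma adjusted p of 0.0361. Cdca8, on chromosome 4, encodes borealin, a subunit of the chromosomal passenger complex that carries Aurora B kinase. It went from 8.13, 9.38 and 9.03 to 6.83, 8.70 and 7.09, a change of -1.31 ± 0.25 with the same limma adjusted p of 0.0361. Pttg1, on chromosome 11, encodes securin, which holds separase back until the APC/C destroys it. Securin read 9.83, 10.91 and 10.71 at 12 h against 8.74, 10.36 and 9.43 at 18 h, a change of -0.98 ± 0.20 with a limma adjusted p of 0.0492. In Cdca8 and Pttg1, as in Cdc20, the groups overlapped while every experiment was lower at 18 h. Experiment 2 held the highest level of all 5 mitotic genes at both times.

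**Figure D1:**
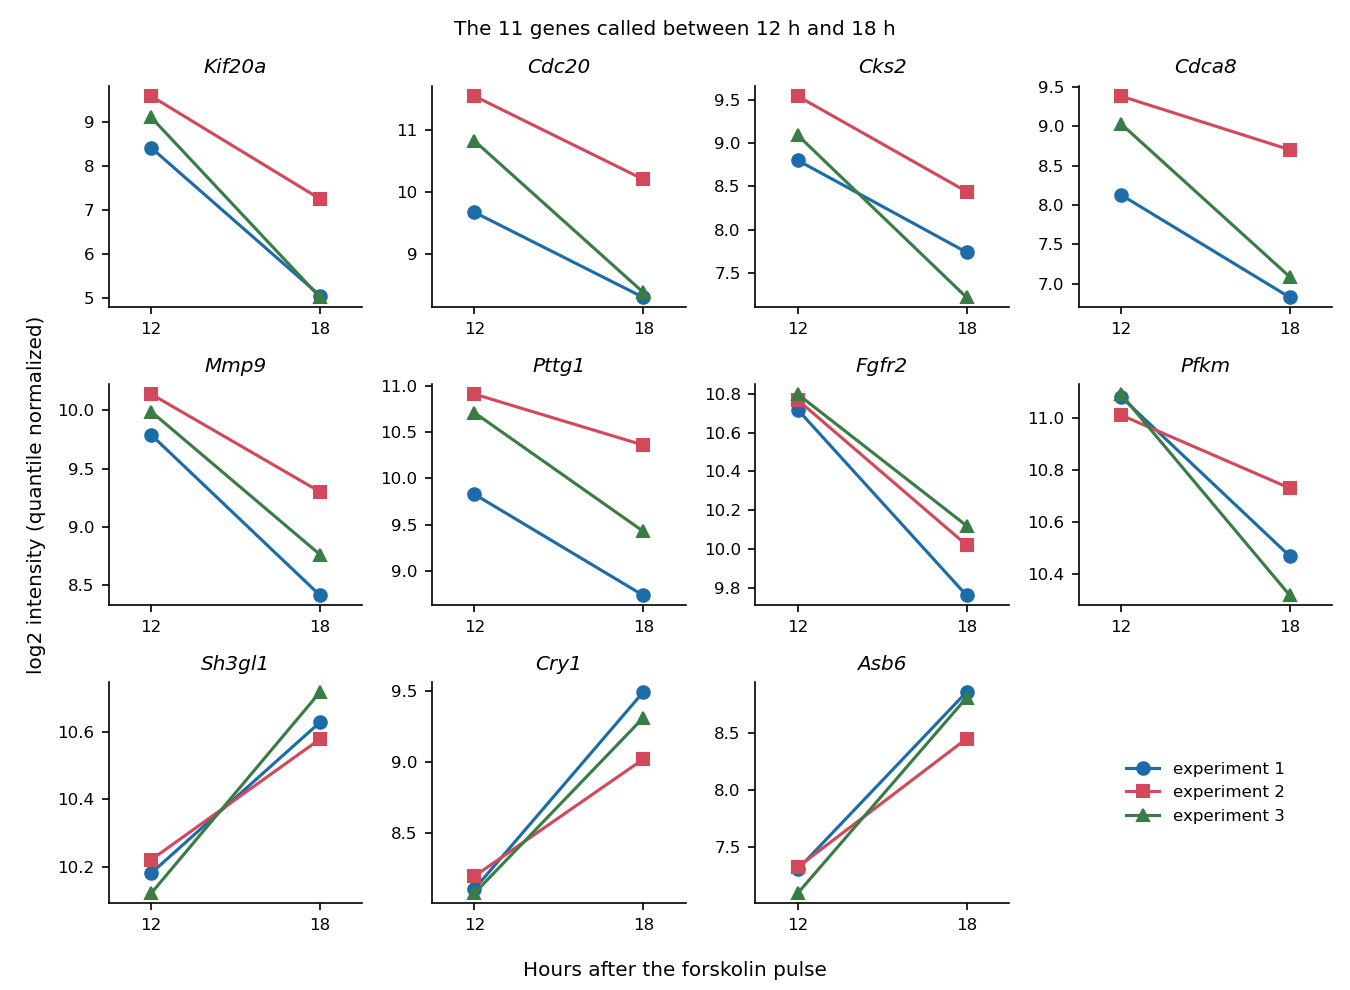
Log2 intensity (quantile normalized) at 12 h and 18 h for the 11 genes called, 1 line per experiment; each panel has its own vertical range. Every line of the 8 genes in the first 2 rows goes down and every line of Sh3gl1, Cry1 and Asb6 goes up.

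The promoters of 4 of these 5 genes are shown because the CHR and CCAAT elements are the known switch of late cell cycle genes. The windows are from RefSeq on GRCm38.p6, run 250 bases before to 50 bases after the annotated start, 5′ to 3′ on the strand of the gene, and capitals mark TTTGAA (the CHR) and CCAAT on either strand. Cdc20 lies at chr4:118437294-118437593 on the minus strand, Cdca8 at chr4:124936868-124937167 on the minus strand, Cks2 at chr13:51644982-51645281 on the plus strand Pttg1 at chr11:43425932-43426231 on the minus strand.
Cdc20: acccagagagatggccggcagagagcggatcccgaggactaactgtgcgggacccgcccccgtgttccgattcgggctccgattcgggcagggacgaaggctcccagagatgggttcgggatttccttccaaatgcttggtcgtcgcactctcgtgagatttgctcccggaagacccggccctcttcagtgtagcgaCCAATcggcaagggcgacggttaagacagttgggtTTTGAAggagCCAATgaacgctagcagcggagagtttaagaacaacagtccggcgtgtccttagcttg
Cdca8: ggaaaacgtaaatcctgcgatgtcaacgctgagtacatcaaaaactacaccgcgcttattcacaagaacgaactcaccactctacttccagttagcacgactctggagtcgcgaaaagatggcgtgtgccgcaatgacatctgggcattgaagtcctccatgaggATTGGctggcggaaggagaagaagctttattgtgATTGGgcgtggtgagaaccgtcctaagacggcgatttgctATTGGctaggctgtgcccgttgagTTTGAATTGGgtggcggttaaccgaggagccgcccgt
Cks2: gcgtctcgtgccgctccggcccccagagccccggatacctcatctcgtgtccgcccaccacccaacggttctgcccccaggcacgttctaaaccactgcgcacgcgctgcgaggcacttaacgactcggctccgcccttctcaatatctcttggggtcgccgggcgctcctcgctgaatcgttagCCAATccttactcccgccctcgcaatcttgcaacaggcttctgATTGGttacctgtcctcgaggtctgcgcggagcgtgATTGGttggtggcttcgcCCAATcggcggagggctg
Pttg1: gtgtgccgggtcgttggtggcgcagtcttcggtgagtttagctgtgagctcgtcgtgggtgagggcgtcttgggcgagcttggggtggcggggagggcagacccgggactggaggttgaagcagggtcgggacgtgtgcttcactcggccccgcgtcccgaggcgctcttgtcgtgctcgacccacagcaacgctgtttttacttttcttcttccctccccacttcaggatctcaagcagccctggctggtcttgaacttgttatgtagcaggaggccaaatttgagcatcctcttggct

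In the Cdc20 window the CHR starts 18 bases before the start site, between CCAAT boxes that begin 53 and 8 bases before it. Cdca8 has its CHR 13 bases after the start and 4 CCAAT boxes, all on the other strand, the last of which overlaps the CHR. Cks2 has 4 CCAAT boxes and no TTTGAA, and Pttg1 has neither in its window. Promoters were on hand for 38 of the 48 mitosis genes tested and for 4571 of the 5643 genes tested. TTTGAA on either strand was in 22 of the 38 mitosis promoters (57.9%), in 11.9% of the promoters of tested genes and in 18.1% of all 27025 promoters. Both TTTGAA and CCAAT were in 20 of the 38 (52.6%), in 5.27% and in 7.12%. The E2F forms TTTGGCGC, TTTCCCGC, TTTGCCGC and TTTCGCGC, counted together, were in 7.89%, 4.40% and 2.32%. These are shares of promoters that hold the letters, and they do not show binding.

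Among genes outside the mitosis lists, 221 had both TTTGAA and CCAAT in the window, and 20 of them (9.05%) were lower at 18 h at an unadjusted p below 0.05. Cdc20, listed with the APC/C, counts as outside those lists. Of the same 221, 12 (5.43%) were higher, and their median change was -0.0. With TTTGAA and no CCAAT, 14 of 299 (4.68%) were lower. Of the 2486 such genes with neither, 108 (4.34%) were. Over all 5643 genes this rule picked 5.17% as lower and 4.48% as higher. Within the mitosis lists the median change was -0.85 over the 22 genes with TTTGAA and -0.46 over the 16 without, and 15 and 9 of them were lower at that p. None of these differences was tested.

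Beyond the genes called, most genes of the mitosis lists had lower levels at 18 h, though few passed the test. The 5 lists of mitotic genes named 91 genes, of which 65 were on the array and 48 passed the intensity filter. Of the 48, 4 were called lower (Kif20a, Cks2, Cdca8 and Pttg1, as Cdc20 was listed with the APC/C) and 0 were called higher, where limma gave 0 of them higher at an unadjusted p below 0.05 too. At that unadjusted p 32 of the 48 were lower (66.7%, against the 5.17% over all genes). The sign was negative for 45, and 36 (75.0%) were lower in all 3 experiments, against 14.9% of all genes. In 15 every array at 18 h was below every array at 12 h, against 3.67% of all genes. Their median change was -0.74 where the median of all genes was 0.00.

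The 3 experiments gave mitosis medians of -0.59, -0.52 and -0.80. Without the 18 h array of experiment 1 the median was -0.80, with 28 of the 48 lower at an unadjusted p below 0.05, against 4.73% of all genes in that fit. Without the block 18 of the 48 were, against 1.91% of all genes in that fit. The 17 listed genes under the filter, which the counts above leave out, had 22 probe sets, of which 19 were lower at 18 h, with a median of -0.66.

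**Figure D2:**
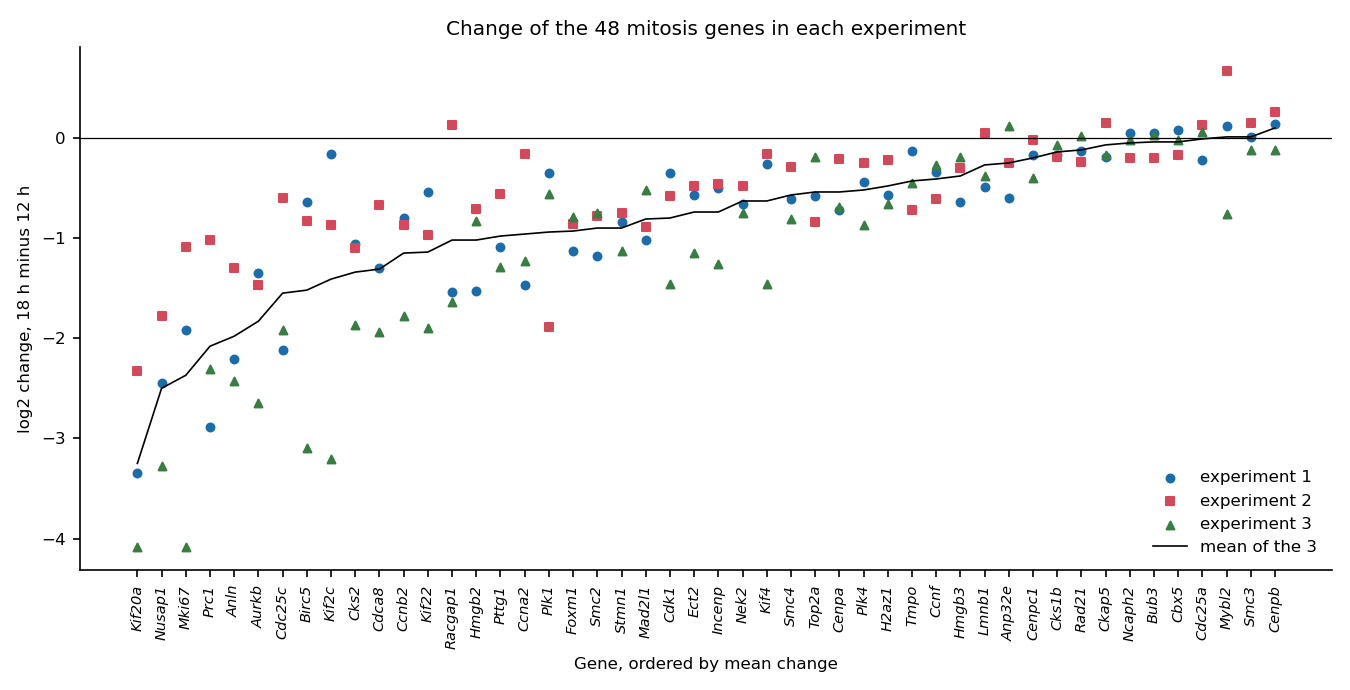
Log2 change from 12 h to 18 h of the 48 mitosis genes, 1 point per experiment (n = 3) and a line through their mean, ordered by that mean. The means run from -3.25 for Kif20a to 0.10 for Cenpb, and experiment 3 (triangles) is the lowest of the 3 for many genes on the left.

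By role, the spindle motors and cytokinesis genes had the lowest median, -1.08 over 12 genes. Of these, 9 were lower at an unadjusted p below 0.05, as were 5.17% of all genes. Besides Kif20a and Pttg1, Nusap1, a protein that bundles spindle microtubules, had -2.50 ± 0.60 (limma adjusted p 0.0949). Prc1, which crosslinks the central spindle, had -2.08 ± 0.56 (limma adjusted p 0.169). Neither passed the test, and Nusap1 on 2 of the 3 arrays at 18 h and Prc1 on 1 lay below the filter level. Both, like the other genes of the mitosis lists that the naming rule did not pick, were chosen after their values were seen. The mitotic kinases and spindle checkpoint had a median of -0.81 over 9 genes, with 8 lower at that p. Aurkb, the kinase of the passenger complex, had -1.83 ± 0.53 (limma adjusted p 0.226) with 2 arrays at 18 h below the filter level, and Birc5, its partner survivin, had -1.52 ± 0.49 (0.271), of which experiment 3 alone gave -3.10. The spindle checkpoint protein Bub3 had -0.04.

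The mitotic cyclins and CDK1 control genes had a median of -0.86 over 10 genes, with 7 lower at an unadjusted p below 0.05 (5.17% of all genes). Ccnb2, a B cyclin, read 8.94, 10.58 and 10.05 at 12 h and 8.14, 9.71 and 8.27 at 18 h. It just missed the threshold, with -1.15 ± 0.24 and a limma adjusted p of 0.0518, and was lower in all 3 experiments. Ccna2, cyclin A, had -0.96 ± 0.35 (limma adjusted p 0.369), where experiment 2 differed by only -0.16. Cdk1 itself had -0.80 ± 0.25 (0.270), and Foxm1, the factor that drives G2 genes, had -0.93 ± 0.24 (0.133). Mybl2, which encodes B-MYB, had 0.01 ± 0.25, and Cdc25a, a phosphatase that acts at the start of S phase as well as in mitosis, had -0.01. Ccnb1 was below the intensity filter and was not tested.

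No chromosome structure gene was called. The condensin, cohesin and mitotic chromatin list had a median of -0.40 over 14 genes, with 8 lower at an unadjusted p below 0.05 (5.17% of all genes). Mki67, the proliferation antigen Ki-67, read 7.90, 8.51 and 8.27 at 12 h against 5.97, 7.42 and 4.19 at 18 h, so the groups did not overlap. The change of -2.37 ± 0.61 did not pass (limma adjusted p 0.133), and a second Mki67 probe set gave -0.03 ± 0.25. Top2a, the topoisomerase that untangles sister chromatids, had -0.54 ± 0.14 (limma adjusted p 0.146). Smc2 and Smc4, the ATPase pair of condensin, had -0.90 and -0.57, whereas the cohesin subunit Smc3 had 0.01. The centromere list had 3 tested genes with a median of -0.20, 0 of them lower at that p in limma, and Cenpa, the centromeric histone, had -0.54 ± 0.30.

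The list of APC/C and SCF ubiquitin ligases, which holds Cdc20, had a median of -0.04 over 12 genes. Besides Cdc20, none was called, 8 of the 12 had a negative sign, 4 were lower in all 3 experiments and 3 were lower at an unadjusted p below 0.05, Cdc20 included in each count.

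Plk1, the Polo kinase that drives entry into mitosis, had 3 probe sets above the filter, and they disagreed. The brightest gave -0.94 ± 0.28 (limma adjusted p 0.239), mostly from experiment 2 with -1.89. The dimmest in level at 18 h fell, from 7.25, 8.68 and 7.93 to 5.78, 6.08 and 6.22, a change of -1.93 ± 0.39 with a limma adjusted p of 0.0431. The remaining probe set gave 0.41 ± 0.48. All 3 have suffixes by which the array design marks probe sets that share sequence with related probe sets or transcripts, as do the probe sets that stand for Kif20a, Cry1 and Pttg1. The one that fell lay below the filter level of 6.77 on all 3 arrays at 18 h. It passed the filter on its levels at other times. The size of its change is therefore uncertain, and no single value is given for Plk1.

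**Figure D3:**
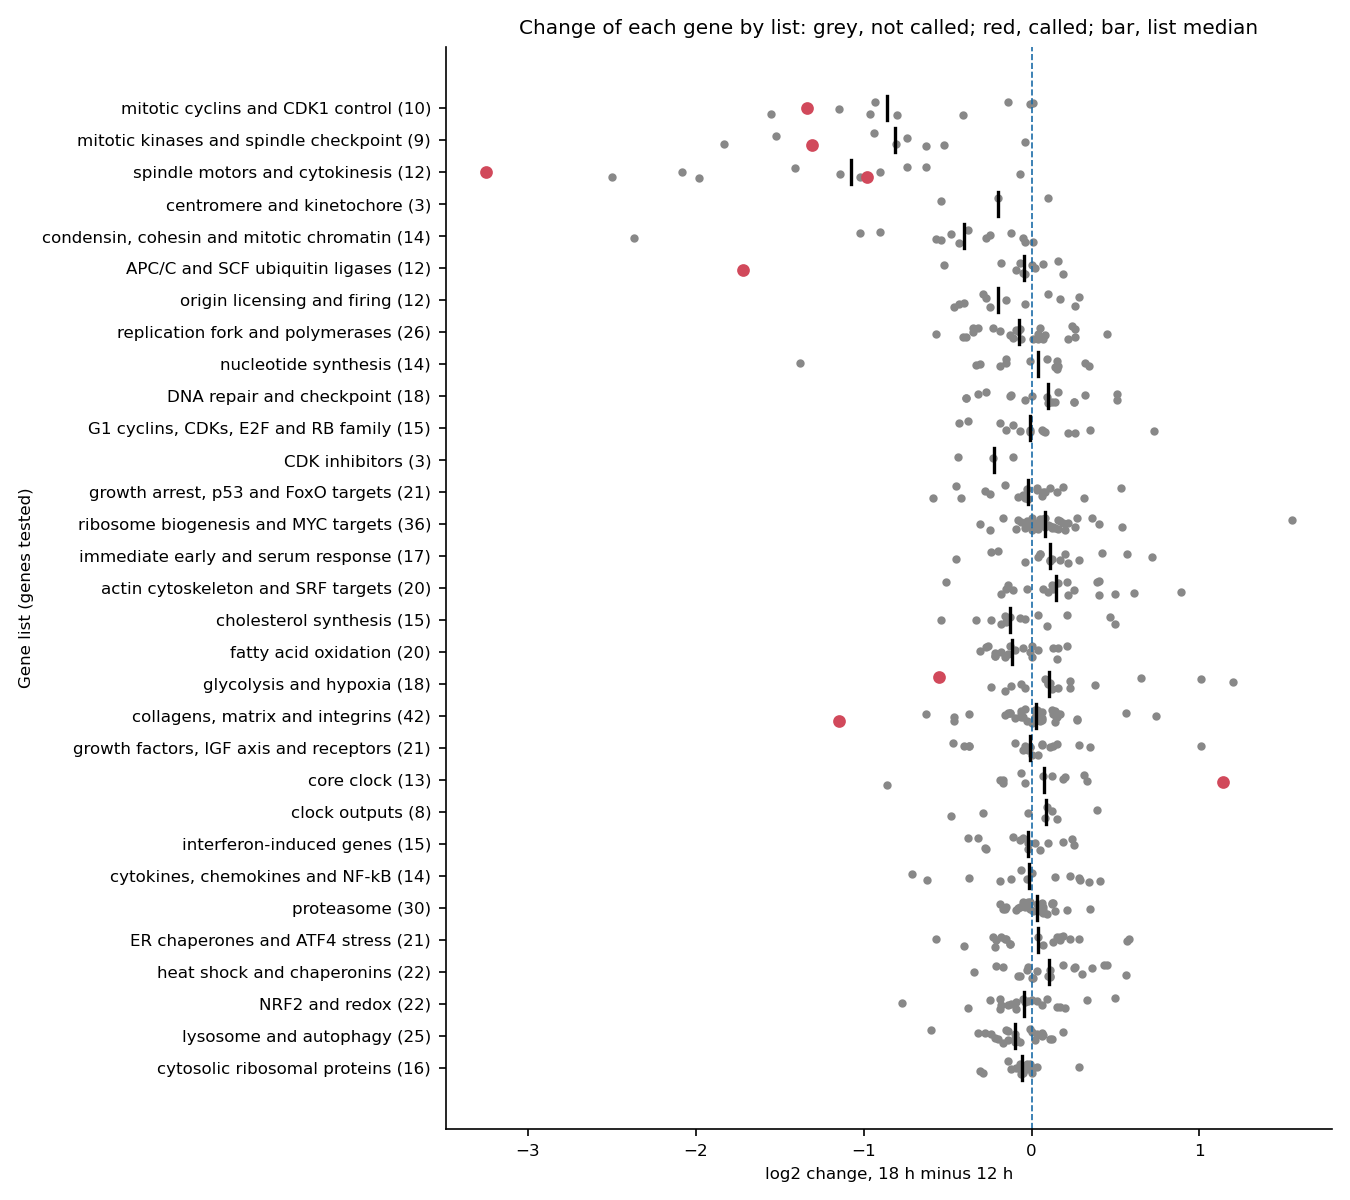
Log2 change from 12 h to 18 h of every tested gene in the gene lists other than cell type markers (number tested in brackets), with a bar at each list's median and larger red points for the genes called. The 3 lists at the top have medians of -0.86, -0.81 and -1.08, and the list medians below the chromatin genes (-0.40) lie between -0.23 and 0.15.

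No gene for DNA replication was called between 12 h and 18 h. Of the 52 tested in the lists for origin licensing, the replication fork and nucleotide synthesis, limma called 0 in either direction, and 4 were lower and 1 higher at an unadjusted p below 0.05 (7.69% and 1.92%). Their median was -0.08, with -0.09, -0.08 and -0.09 in the 3 experiments, and 30 of the 52 had a negative sign. In 17 (32.7%) the level was lower in all 3 experiments, against the 14.9% of all genes, and without the 18 h array of experiment 1 the count at an unadjusted p below 0.05 was 7 lower, against the 4.73%. The helicase subunits Mcm2, Mcm3, Mcm4, Mcm5 and Mcm7 had 0.17, -0.29, 0.28, -0.40 and -0.27. Pcna, the sliding clamp, read 8.75, 8.78 and 8.82 at 12 h and 9.06, 8.78 and 8.66 at 18 h, with the groups overlapping. The ribonucleotide reductase subunits Rrm1 and Rrm2 had -0.31 ± 0.17 and -0.19 ± 0.22.

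The replication genes with the smallest p in their lists were Cdc6, which loads the helicase (-0.43 ± 0.23), Lig1, the ligase that joins Okazaki fragments (-0.57 ± 0.18), and Tk1, thymidine kinase (-1.38 ± 0.48). Their limma adjusted p-values were 0.603, 0.271 and 0.329. Tk1 ranged widely, from 7.82, 9.90 and 9.01 at 12 h to 6.50, 9.57 and 6.52 at 18 h, and the groups overlapped. The DNA repair and checkpoint list had a median of 0.10 over 18 genes, and its leading gene Rad52, of recombination repair, had -0.39 ± 0.18 (limma adjusted p 0.518).

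Regulators of G1 and of arrest showed no call. The list of G1 cyclins, CDKs, E2F and RB genes had a median of -0.01 over 15 genes. Ccnd1, cyclin D1, was 9.18, 8.50 and 8.09 at 12 h and 9.62, 9.30 and 9.06 at 18 h, higher in each experiment, with 0.73 ± 0.21 and a limma adjusted p of 0.226. Ccne1, cyclin E1, had -0.15 ± 0.29. E2f1, the activator of S phase genes, had -0.01 ± 0.41 from single changes of 0.54, 0.48 and -1.04, and Myc had -0.08 ± 0.30. The CDK inhibitors p21 (Cdkn1a), p18 (Cdkn2c) and p19 (Cdkn2d) had -0.11 ± 0.19, -0.23 ± 0.10 and -0.44 ± 0.40, so none was called higher, while Cdkn1b and Cdkn1c were below the filter. Of 21 tested genes of growth arrest and of p53 and FoxO targets, limma called 0. At an unadjusted p below 0.05, 2 were lower (9.52%, against 5.17% of all genes) and 1 higher (4.76%, against 4.48%). Sesn1, a p53 and FoxO target, led with -0.42 ± 0.13 (limma adjusted p 0.236). In these arrays the label of a shutdown of proliferation rests on the mitotic transcripts, since no replication gene or CDK inhibitor was called. Of 7 listed CDK inhibitors 4 were below the filter. The replication median was -0.24 from 6 h to 12 h and 0.05 at 48 h against 12 h. Arrest itself was not tested, and the missing calls do not decide it. Cell number and DNA content were not analysed here.

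**Figure D4:**
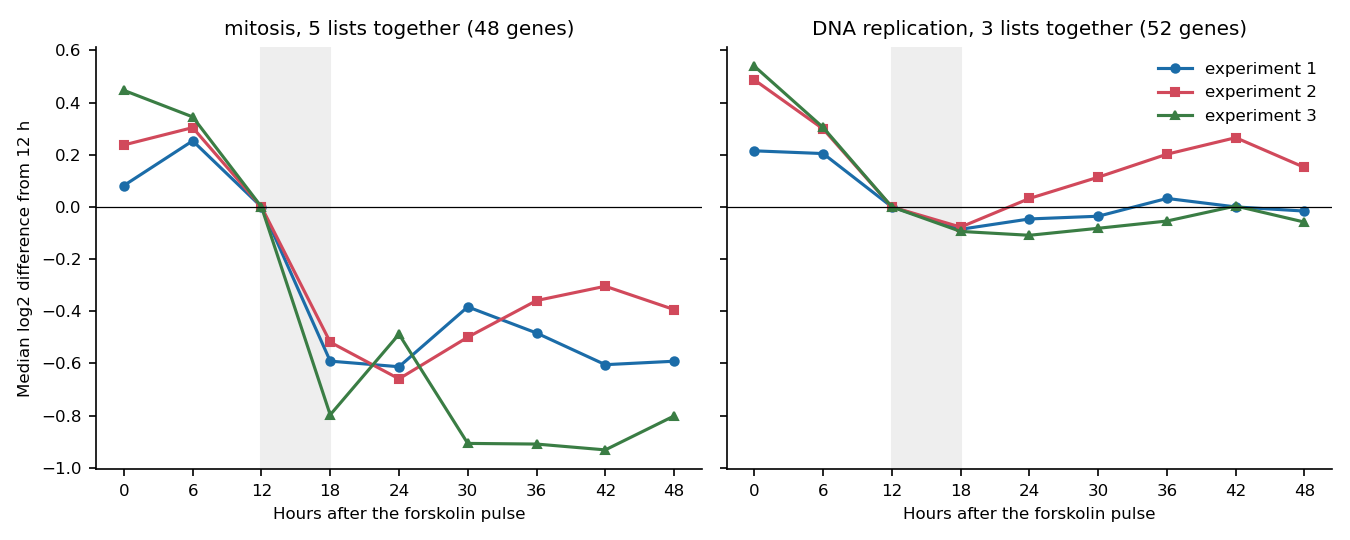
Median log2 difference from the 12 h array of the same experiment, for the 48 mitosis genes (left) and the 52 DNA replication genes (right), against hours after the pulse, 1 line per experiment; the shaded band is 12 h to 18 h. At 18 h the mitosis medians are -0.59, -0.52 and -0.80 and the replication medians -0.09, -0.08 and -0.09.

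In the interval before, both groups already had medians below that of all genes. From 6 h to 12 h the mitosis median was -0.28 and the replication median -0.24, where the median of all genes was 0.00, and 10 of 48 and 13 of 52 were lower at an unadjusted p below 0.05 (6.93% of all genes). In that interval 21 genes fell (0.372%) and 13 rose (0.230%). The mitosis genes among the falls were Plk4, the kinase of centriole duplication (-1.25 ± 0.20), and H2az1, a histone H2A variant (-0.86 ± 0.18). The replication gene among them was Rpa1, a subunit of the single-strand binding protein (-0.89 ± 0.17). The 5 mitotic genes called at 18 h had -0.16 to -0.40 there, Kif20a the least and Cks2 the most, and none was called. The 2 comparisons share the 12 h arrays.

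The difference between the 2 intervals was tested for every probe set. Asb6 alone was called (0.0177% of genes higher), and limma called 0 genes (0%) as falling more steeply after 12 h than before, with 167 (2.96%) at an unadjusted p below 0.05. Kif20a had a difference of -3.10 ± 0.93 with a limma adjusted p of 0.472, and Cdc20 one of -1.35 ± 0.55 with 0.655. A steeper fall of the mitotic genes in the second interval was thus not shown.

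No mitotic gene was called in a return or a further fall from 18 h to 24 h or to 48 h. The times between 24 h and 48 h were not tested against 18 h, and the experiments differed there. Against 12 h, the mitosis medians of experiments 1, 2 and 3 were -0.591, -0.519 and -0.797 at 18 h. At 42 h they were -0.605, -0.304 and -0.932. From 18 h to 24 h limma called 0 genes (0%) in either direction, with 340 of 7453 probe sets (4.56%) at an unadjusted p below 0.05, and the mitosis median was 0.07. The difference between the changes before and after 18 h was called for 0 of 7453 probe sets (0%) by limma, with 375 (5.03%) at an unadjusted p below 0.05. Kif20a averaged 5.78 at 18 h and 6.46, 6.27, 6.26, 5.89 and 5.89 at the later times up to 48 h, against 9.03 at 12 h. Cdc20 averaged 8.96 at 18 h and between 8.77 and 9.22 later, against 10.68 at 12 h and 11.05 at 6 h. Against 12 h, 16 of the 48 mitosis genes were called lower at 48 h and 0 higher, where 5.28% of genes were called lower and 5.23% higher, and at an unadjusted p below 0.05 limma gave 27 lower and 0 higher (13.1% and 12.7% of all genes). Ccnb2 and Cdk1, which missed the threshold at 18 h, were among the 16, with -1.17 ± 0.24 and -0.98 ± 0.25 (limma adjusted p 0.00403 and 0.0159). From 18 h to 48 h 0 of the 48 were called (0.195% of genes were called lower and 0.0886% higher), with 2 higher at an unadjusted p below 0.05 in limma (7.23% of all genes). The replication genes had a median of 0.05 at 48 h against 12 h, with 1 called lower and 4 higher.

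The 3 other genes that fell are not cell cycle genes. Mmp9, a secreted protease that cuts basement membrane collagen and gelatin, read 9.79, 10.14 and 9.99 at 12 h and 8.41, 9.30 and 8.76 at 18 h. Those groups did not overlap, and the change was -1.15 ± 0.22 (limma adjusted p 0.0378). Fgfr2, a receptor of fibroblast growth factors, went from 10.72, 10.77 and 10.80 to 9.76, 10.02 and 10.12, with the smallest spread between experiments of the falls, a change of -0.79 ± 0.16 (limma adjusted p 0.0431). A dimmer Fgfr2 probe set above the filter gave -0.52 ± 0.60, and another, under the filter, gave 0.02. Pfkm, the muscle type of the glycolytic enzyme phosphofructokinase, went from 11.08, 11.01 and 11.09 to 10.47, 10.73 and 10.32, with -0.55 ± 0.11 (limma adjusted p 0.0431). All 3 were also lower at 48 h than at 12 h, with -1.32, -1.19 and -0.67.

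Asb6, an adaptor of ubiquitin ligases, had the largest rise among the called genes. It read 7.30, 7.32 and 7.09 at 12 h and 8.86, 8.45 and 8.81 at 18 h, 1.47 ± 0.28 higher with a limma adjusted p of 0.0361. This gene had fallen by 1.48 from 6 h to 12 h, so that its mean was 8.71 at 6 h, 7.24 at 12 h and 8.70 at 18 h, and the 12 h arrays held the lowest mean of the course. The difference between its 2 changes was 2.94 ± 0.48 (limma adjusted p 0.0242). Sh3gl1, which encodes endophilin A2 of endocytosis, went from 10.18, 10.22 and 10.12 to 10.63, 10.58 and 10.72, a rise of 0.47 ± 0.09 (limma adjusted p 0.0431). In both genes every array at 18 h was above every array at 12 h, as in 3.37% of all genes.

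Cry1, which encodes a cryptochrome that represses the CLOCK and BMAL1 activators, was the clock gene that rose. It read 8.11, 8.20 and 8.08 at 12 h and 9.49, 9.02 and 9.31 at 18 h, without overlap, a rise of 1.14 ± 0.22 or 2.21-fold (limma adjusted p 0.0378). Its mean was 9.70 right after the pulse, 8.42 at 6 h and 8.13 at 12 h, and from 18 h on it stayed between 9.01 and 9.27. A pair of dimmer Cry1 probe sets under the filter gave -0.29 and -0.14. The Cry1 promoter is shown for its E-box, CACGTG, the element that CLOCK and BMAL1 bind, here in capitals. The window is chr10:85185005-85185304 on the minus strand of GRCm38.p6, and the E-box begins 60 bases before the start site. CACGTG was in 10.9% of the promoters of tested genes and in 7.24% of all.
Cry1: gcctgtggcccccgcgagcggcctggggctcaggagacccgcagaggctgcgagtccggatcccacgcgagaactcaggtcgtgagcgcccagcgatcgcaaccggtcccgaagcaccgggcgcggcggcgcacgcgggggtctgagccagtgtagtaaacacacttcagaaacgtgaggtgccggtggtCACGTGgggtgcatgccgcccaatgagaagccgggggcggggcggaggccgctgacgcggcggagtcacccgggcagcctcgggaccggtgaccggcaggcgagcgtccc

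No other clock gene was called among 13 core clock genes tested, whose median was 0.07. The partner Cry2 had 0.12, Per1 0.33 and Per3 0.31 ± 0.37, Arntl, which encodes BMAL1, had -0.04, Clock had -0.17, Bhlhe40 0.20 and Timeless -0.06. The nuclear receptors Nr1d1, Nr1d2 and Rora had -0.19, -0.86 ± 0.57 and 0.19, and the kinases Csnk1d and Csnk1e had -0.17 and 0.07. Of 8 clock outputs limma called 0, with 1 lower at an unadjusted p below 0.05. That was Pnp, a purine enzyme, with -0.48 ± 0.21. The circadian transcription factors Dbp and Tef had 0.15 and 0.39, Nfil3, which opposes them, 0.09, and Klf9 0.09. Usp2, Nampt and Alas1 had -0.02, -0.29 and 0.12. Npas2, Per2, Bhlhe41, Hlf, Ciart, Wee1 and Por were below the filter.

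Experiment 1 stood apart for some of these clock genes. Nr1d2 read 8.31, 8.50 and 8.88 at 12 h and 6.24, 8.85 and 8.01 at 18 h, Per3 read 9.62, 9.40 and 8.98 and then 8.89, 10.22 and 9.82, and Tef read 9.67, 10.25 and 10.49 and then 9.48, 11.08 and 11.02. In each the 18 h array of experiment 1 was the lowest of the 3 at that time. Without that array the change was 0.04 for Nr1d2, 0.77 for Per3 and 0.86 for Tef. It was 0.88 for Dbp, 0.54 for Bhlhe40, 0.18 for Nr1d1, 0.04 for Cry2 and -0.36 for Arntl, and none of these was called. Among the 5 mitotic genes called, the change in experiment 1 lay between those of experiments 2 and 3 in 4, and in Cks2 it was the smallest of the 3, -1.06 against -1.10 and -1.87. The fit without that array called Hlx, a homeobox gene, with -1.31, where the fit of all arrays gave -0.97 ± 0.24 (limma adjusted p 0.115).

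Among the other lists the actin cytoskeleton and SRF target genes had a share of higher genes above the background. Of 20 tested, limma called 0, and 6 were higher and 1 lower at an unadjusted p below 0.05 (30.0%, against 4.48% higher over all genes), with a median of 0.15. Tpm1, a tropomyosin of stress fibres, read 11.98, 11.65 and 11.82 at 12 h and 12.44, 12.06 and 12.13 at 18 h, with 0.39 ± 0.10 (limma adjusted p 0.133). Without the 18 h array of experiment 1, 4 of the 20 were higher at that p, against 3.69% of all genes. In ribosome biogenesis and MYC targets the median was 0.08 over 36 genes, and Nolc1, a nucleolar protein, led with 1.55 ± 0.50 (limma adjusted p 0.271) at levels mostly below the filter at 12 h.

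For the remaining lists the gene with the smallest p stayed uncalled, apart from Mmp9 and Pfkm. The immediate early gene Klf10 had -0.45, the cholesterol enzyme Ebp -0.54 and the fatty acid oxidation enzyme Acaa2 -0.27. The growth factor Igf2 had 0.35, the interferon-induced Gbp2 -0.32, the adhesion molecule Vcam1 0.29 and the proteasome activator subunit Psme3 0.35. The amino acid transporter Slc7a5 came closest, with 0.57 ± 0.12 and a limma adjusted p of 0.0574. The chaperone Dnaja1 had 0.43, thioredoxin (Txn1) -0.25, the lysosomal protease Ctsl -0.60 and the ribosomal protein Rpl13a -0.31. The fibroblast marker S100a4 had -0.22 at a mean level of 14.14.

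No marker of another cell type passed the test. Of the listed markers 6 of 14 for muscle, 6 of 15 for neurons and glia, 5 of 15 for macrophages and blood, 2 of 10 for endothelium, 2 of 10 for epithelium and 4 of 10 for adipocytes were above the filter. Limma called 0 of these 25 tested markers, with 2 higher at an unadjusted p below 0.05, as were 4.48% of all genes. Those were Myog, the muscle factor, with 0.86 ± 0.34, and the lipase gene Lpl with 0.69 ± 0.21. The smallest p in the other lists belonged to Snap25 (0.26), Cd68 (-0.20), Eng (-0.29) and Cdh1 (-0.15). Their part in the results above was not tested.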

How the data were processed

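Total RNA was hybridized to Affymetrix mouse U74v2 arrays, 1 per sample. The deposited table holds linear intensities per probe set, with the same trimmed mean on every array. How the authors summarised the probes was not given in the sources used here. A pseudocount of 12.1, the 10th percentile, was added before taking log2, and the arrays were quantile normalized, so folds of dim genes are understated. Probe sets under the 40th percentile of mean level and 66 controls were left out of 12488, which kept 7453. Detection calls were not used, and 3 arrays per time limit the precision. The platform annotation, set against RefSeq (GRCm38.p6), gave 1 symbol to 10855 probe sets and several to 396, and the brightest probe set stood for each of 5643 genes.

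The changes were tested in limma 3.58.1 under R 4.3.3 (9 time means, experiment as a block, eBayes with trend, Benjamini-Hochberg adjustment). The experiment numbers paired the samples: deviations from the time means of the 12 h and 18 h arrays correlated with r of 0.540, 0.408 and 0.273 in experiments 1 to 3, and in all pairs of times with 0.135 or more. The p-values rest on the scatter left after time means and level differences between experiments were taken out. This scatter was pooled over all 9 times and moderated across probe sets, so it is not the spread of the 3 paired changes alone. Where the fit was tested on simulated data for 18 h against 12 h, among 7453 probe sets, 34.3% of changes of 0.5, 76.1% of 1 and 97.0% of 2 on the log2 scale were recovered, with 6 false calls. That simulation planted 67, 67 and 66 such changes in independent normal noise drawn from the fitted model. Its shares do not carry over to the real arrays, where Nusap1 with -2.50 was not called. A gene that was not called is therefore not shown to be unchanged. Named were the called genes (15 largest each way at most), the leading gene of each list, and fixed cell cycle and clock genes. The comparison, the members and the lists were chosen with earlier results of these data known, so no pattern is independent support. Alternatives changed the block, scaling, pseudocount, filter, variance model, array weights and arrays used.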

Additional observations from a re-analysis of the deposited data

How the results depend on the processing

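The experiment block, the filter, the intensity trend and the arrays used each decide the calls. Of 7453 probe sets, 9 were called lower and 3 higher (0.161%). With no replicate block, and so without the pairing, limma called 0 lower and 0 higher, with 243 at an unadjusted p below 0.05. It also called 0 lower and 0 higher with no filter on low values (1007 at an unadjusted p below 0.05), without the intensity trend (648) and with only the 6 arrays of 12 h and 18 h (552). Without the 18 h array of experiment 1 it called 3 lower and 0 higher (614). A pseudocount at the 25th percentile gave 15 lower, and a filter at the 60th percentile gave 5 higher. Leaving out 1 experiment at a time gave 0 lower each time and 0 to 2 higher (356 to 836). The difference from the interval before had 1 call, against 0 with no replicate block, 0 with no filter, 0 without the trend and 0 to 2 with 1 experiment left out. The difference from the interval after had 0 calls, with 375 at an unadjusted p below 0.05, and 2 calls without the 18 h array of experiment 1. The cause was not tested. The 12 calls kept their sign in every setting that measured them, and were kept as calls in 9 to 12 cases under the deposited scaling, median centring, the higher pseudocount, the stricter filter (9 of 9 measured), robust eBayes and array weights.

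Some genes that were not called changed sign. Without the 18 h array of experiment 1 these were Myc (0.06), Nr1d1 (0.18), Nr1d2 (0.04) and Pcna (-0.11). Array weights turned Arntl (0.03), Bhlhe40 (-0.01), Dbp (-0.15) and Timeless (0.04), and the higher pseudocount E2f1 (0.00). With 1 experiment left out at a time, the ranges that crossed 0 were -0.26 to 0.24 for Arntl, -0.40 to 0.11 for Ccne1, -0.29 to 0.00 for Cdkn1a, -0.05 to 0.20 for Csnk1e, -0.38 to 0.48 for Dbp, -0.28 to 0.51 for E2f1, -0.01 to 0.14 for Nfil3, -0.35 to 0.00 for Nr1d1, -0.08 to 0.15 for Pcna, -0.02 to 0.75 for Per1, -0.26 to 0.17 for Timeless and -0.35 to 0.16 for Usp2. Low intensities cannot be told from background, which limits Kif20a, Mki67, Nolc1, Nusap1, Aurkb and the called Plk1 probe set, among others. At 18 h the means of Kif20a, Mki67, Nusap1, Aurkb and the called Plk1 probe set were under the filter level. These probe sets passed the filter on their levels at other times.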
